A study of Homo sapiens with 24 samples.

Results

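The genes described here are cytosolic molecular chaperones and heat shock genes, a list of 42 symbols grouped by gene family. The families are HSP70 and HSP110 proteins, J-domain partners, BAG exchange factors, and HSP90 with its cochaperones. They also include small heat shock proteins, the TRiC/CCT chaperonin, the mitochondrial chaperonin and the heat shock factors. The list was chosen with earlier results of these data known, and it leaves out some members of these families. The RNA of the listed genes was followed in HepaRG, a human liver progenitor cell line that can form hepatocyte-like and biliary-like cells. Every culture had first been grown with insulin and hydrocortisone and then held in DMSO for 2 weeks. The hepatocyte-like cells were lifted with mild trypsin, plated sparsely to set off what the labels call reprogramming, and sampled on replating (0 h), after 1, 4 and 8 h, after 12 and 16 h, and after 24 and 48 h, with 3 arrays at each time (24 in all). All groups therefore share the line, the DMSO history and the detachment, the 0 h cells being those collected at replating. No culture left attached and none replated densely is among the samples analysed here, so time in culture, detachment and low density cannot be told apart.

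Each array, a 1-colour Affymetrix design, reads a gene through 1 or more probe sets, and the values are MAS5 signals as deposited. Of the 42 genes, 36 were measured by 60 probe sets annotated to that gene alone, and 59 of these probe sets passed the filter on low signals. Each gene is given by its brightest tested probe set, and 18 of the 36 genes had more than 1. HSPA8 and TCP1 share all their probe sets with small nucleolar RNAs in the annotation and are not resolved. HSPA1A and HSPA1B, near-identical copies, are described jointly from the 2 probe sets annotated to just that pair. AHSA1 and HSF2 were not analysed here.

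Chaperones bind unfolded stretches of other proteins and release them, mostly through cycles of ATP hydrolysis, so that folding wins over clumping. In the cytosol J-domain proteins hand clients to HSP70, exchange factors (HSP110 and BAG proteins) reset HSP70, the adaptor STIP1 passes some clients on to HSP90, and the ring-shaped TRiC/CCT chaperonin folds actin and tubulin. When proteins are damaged, heat shock factor 1 (HSF1) binds heat shock elements, which are repeats of GAA in alternating orientation, and raises transcription of the inducible members. The liver, which makes and secretes much protein, depends on these systems and on a separate set in the endoplasmic reticulum (ER).

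Heat shock elements near the starts of these genes are shown as a feature of sequence in which the members differ. Since heat shock genes were among those listed, the share of members with an element is not independent of their choice. RefSeq (GRCh38.p14) windows of 300 bases, 250 before a start and 50 after it, matched 39 of the 42 genes in 52 windows, and HSF1, CRYAB and FKBP4 had none. An element of 3 units was searched as GAANNTTCNNGAA or TTCNNGAANNTTC, each of which is the other's reverse complement, so that both strands were covered. It occurred in 8 of the 39 genes (20.5%), against 166 of all 27305 genes with a window (0.608%). The 8 were CHORDC1, HSPA6, HSP90AA1, HSP90AB1, DNAJA1, DNAJB6, HSPD1 and HSPA8. The shorter 2-unit forms GAANNTTC and TTCNNGAA, which the 3-unit forms contain, occurred in 20 of the 39 genes (51.3%), against 16.2% of all genes. The stretches below are read 5′ to 3′ along the gene and lie before the start that defines the window holding the match. Capitals mark every 3-unit match, or in HSPB1, which had none, its 2-unit match. A match says only that these letters are there.
CHORDC1, chr11:90223057-90223139 (minus strand): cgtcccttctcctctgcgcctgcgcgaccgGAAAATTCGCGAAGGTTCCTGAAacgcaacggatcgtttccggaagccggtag
HSPA6, chr1:161524436-161524508 (plus strand): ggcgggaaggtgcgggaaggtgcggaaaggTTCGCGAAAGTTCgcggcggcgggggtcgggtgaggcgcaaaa
HSP90AB1, chr6:44247748-44247873 (plus strand): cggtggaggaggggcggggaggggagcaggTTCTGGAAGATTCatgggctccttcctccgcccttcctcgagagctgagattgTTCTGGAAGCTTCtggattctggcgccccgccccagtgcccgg
HSP90AA1, chr14:102087090-102087162 (minus strand): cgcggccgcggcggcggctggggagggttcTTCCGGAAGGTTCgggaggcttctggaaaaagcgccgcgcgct
DNAJB6, chr7:157336843-157336915 (plus strand): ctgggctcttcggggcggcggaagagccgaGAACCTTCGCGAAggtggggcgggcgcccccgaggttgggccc
HSPD1, chr2:197500038-197500090 (minus strand): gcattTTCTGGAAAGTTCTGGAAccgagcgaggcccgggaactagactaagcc
HSPB1, chr7:76302461-76302528 (plus strand): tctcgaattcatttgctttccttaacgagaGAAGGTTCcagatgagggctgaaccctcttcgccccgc

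The matches differed in number and place. Of the 39 genes, 11 had more than 1 window, and distances are to the start of the window holding the match. In HSP90AB1, HSP90AA1 and HSPD1 the matches lie downstream of another start of the gene, whose window held no 3-unit match. CHORDC1 held 3 overlapping matches beginning 60 bases before the start, HSPA6 held 1 beginning at 74, HSP90AA1 1 at 88 and DNAJB6 1 at 131. HSP90AB1 held 2 separate matches, the farther beginning at 165, and HSPD1 held 2 overlapping ones beginning at 245. In HSPB1 the 2-unit match began at 182. HSPA8 held 2 separate matches, the farther beginning at 230, and its stretch is not shown. The match of DNAJA1 lay partly or wholly after the start and is not shown either.

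The state of the cells and of the RNA changed with time. The 7 hepatocyte marker genes measured, albumin and transthyretin among them, were among the brightest on the 0 h arrays, and their summed signal was 366559 to 400523 at 0 h, 233220 to 265483 at 12 h and 119983 to 133921 at 48 h. The summed signal of 4 biliary markers (KRT7, KRT19, SOX9 and SPP1) was 4628 to 5119 at 0 h, 19679 to 20956 at 12 h and 16076 to 20368 at 48 h. All 7 hepatocyte genes were lower at 12, 16, 24 and 48 h, and all 4 biliary genes were higher at 4, 8 and 12 h and 3 of the 4 later. KRT19 made up most of the biliary sum at 0 and 48 h, averaging 3357 and 16145. SPP1 averaged 969 and 1759 at these times, while SOX9 was lower in mean at 48 h (379) than at 0 h (517). KRT7, a defining biliary keratin, was dim at 0 h (36.7 ± 27.9, SD, n = 3) and averaged 108 at 48 h. Markers of other cells, 3 genes for each type, had far lower sums than the hepatocyte markers. These sums were 259 to 848 for blood, 39.1 to 261 for endothelium and 96.7 to 399 for stellate cells or fibroblasts. PTPRC, VWF and CDH5 did not pass the filter. The blood marker CD14 was not near background, averaging 388 ± 54.7 (SD) at 0 h, above 71.7% of the signals there. The ratio of 3′ to 5′ signal of the ACTB control, which is higher for degraded RNA, was 1.02 to 2.12 (median 1.30) on the 21 later arrays and 2.03 to 6.91 on the 3 at 0 h, the highest in replicate 2. The part of these shifts in the chaperone results was not tested. In such bulk samples more cells of a type and more RNA per cell cannot be told apart.

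Most of the 36 measured genes of the list were higher from 8 h on than at 0 h, and few were lower at any time. A gene is said to have risen or fallen where limma's test gave an adjusted p under 0.05 over all 9966 genes, and changes are on the log2(signal + 18.0) scale with their standard error (SE), which understates changes of dim genes. At 1 h 3 of the 36 were higher and none was lower, against 3.29% higher and 1.75% lower among all genes tested. At an unadjusted p under 0.05, 4 were lower at 1 h, against 9.7% of all genes. At 4 h 14 were higher and 1 lower, against 13.3% and 18.3% of all genes. At 8 h 23 were higher and 2 lower, beside 16% and 20.8% of all genes. Of 34 further cytosolic and mitochondrial chaperones outside the list, 8 were higher and 4 lower at 8 h (23.5% and 11.8%).

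The count was highest at 12 h among the 7 later times. By then 27 of the 36 had risen and none had fallen, while 17.2% of all genes were higher and 20.3% lower. Of the 34 further chaperones outside the list, 8 were higher and 5 lower at 12 h (23.5% and 14.7%). At 16 h 25 were higher (18.2% of all genes) and none lower (21.1%). At 24 h 25 were higher (20%) and 1 lower (19.1%), and at 48 h 22 were higher (19.6%) and none lower (19.4%). Changes of at least 2-fold upward that passed numbered 1, 6 and 10 of the 36 at 1, 4 and 8 h (2.22%, 7.6% and 8.41% of all genes), 12 and 8 at 12 and 16 h (8.72% and 9.19%) and 11 and 13 at 24 and 48 h (10.4% and 9.82%). At 12, 16 and 48 h the lower members also numbered 0 at an unadjusted p under 0.05, against 24.4%, 25.6% and 24.2% of all genes. Of the 143 changes against 0 h that passed, over all members and times, 125 passed with any 1 array left out and 18 did not pass without some array.

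The median log2 change of the 36 genes was -0.06 at 1 h and 0.22 at 4 h, then 0.52, 0.78 and 0.71 at 8, 12 and 16 h, and 0.78 and 0.73 at 24 and 48 h. The same median over all genes stayed between -0.16 and -0.09. Centring every array on its median brought the all-gene value to 0.07 at 12 h and 0.14 at 48 h and that of the chaperone genes to 0.98 and 0.99. All 7 comparisons share the 0 h arrays. Without the 0 h array of highest ACTB ratio, 14, 20, 26, 26, 23 and 22 genes were higher at 4 to 48 h. With the 1 h arrays as the start, a setting chosen after seeing the data, they were 14, 26, 26, 25, 24 and 24.

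**Figure D1:**
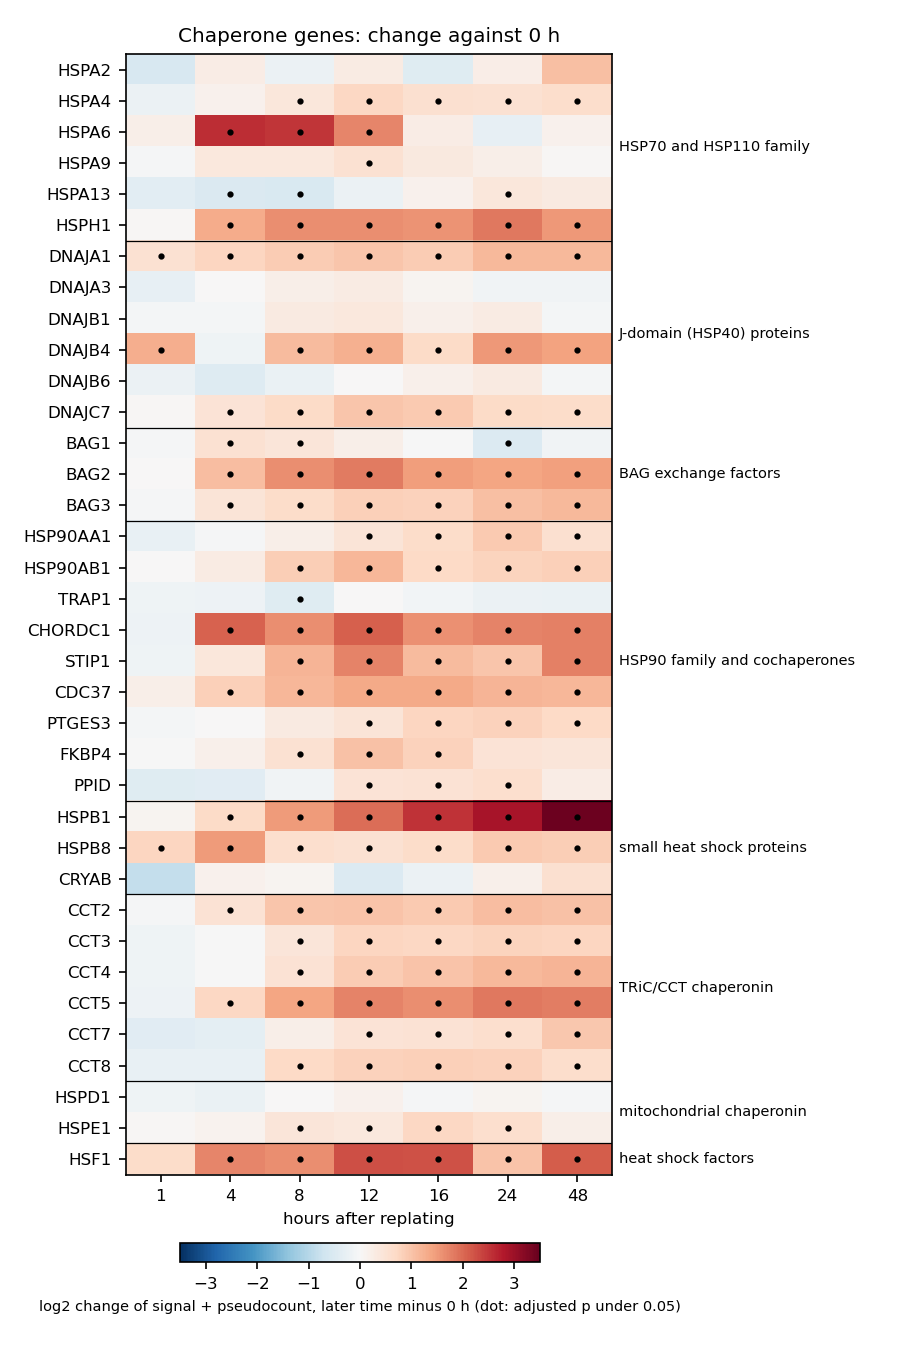
Log2 change of each of the 36 measured chaperone genes (rows, grouped by role) at 7 later times against 0 h (columns), on a colour scale in log2 units, with a dot where the adjusted p was under 0.05. Red cells with dots fill most rows from 8 h on, HSPA6 is marked only from 4 to 12 h, and HSPB1 deepens to 3.43 at 48 h.

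**Figure D2:**
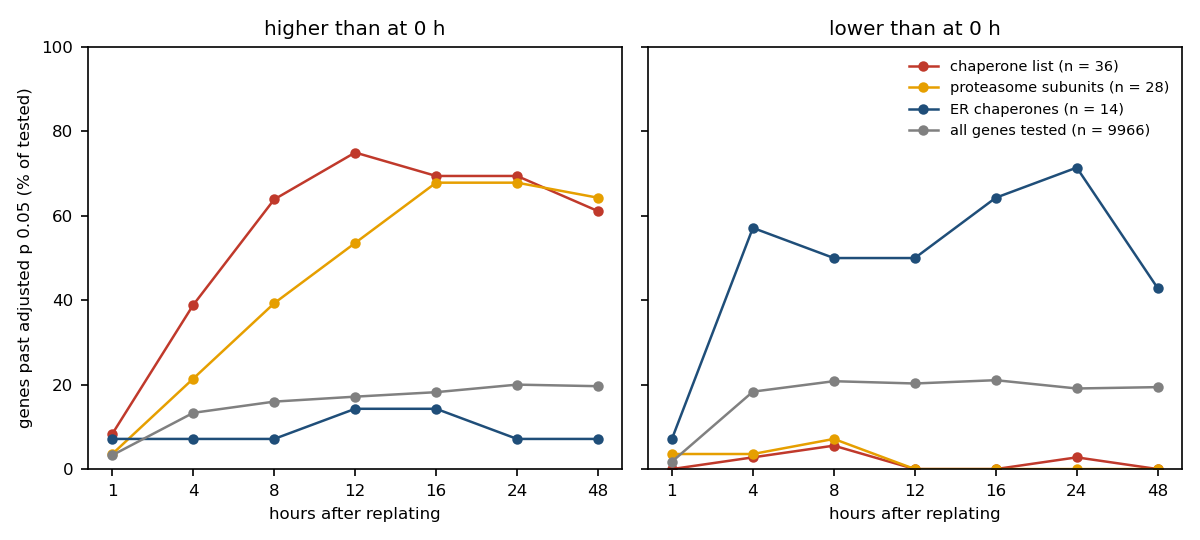
Percentage of genes that passed adjusted p 0.05, higher (left) or lower (right) than at 0 h, at each later time, for the 36 chaperone genes, 28 proteasome subunits, 14 ER chaperones and all 9966 genes tested. The chaperone line climbs to 27 of 36 at 12 h, while the ER chaperones lie above the other lines on the lower side.

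By the moderated F-test over the 8 times, 32 of the 36 genes differed, against 58.9% of all genes. The exceptions were HSPA2, DNAJB1, TRAP1 and HSPD1. Against 0 h, 3 genes first passed at 1 h (DNAJA1, DNAJB4 and HSPB8), another 13 at 4 h, followed by 9 at 8 h and by 5 at 12 h. The remaining 6 (HSPA2, DNAJA3, DNAJB1, DNAJB6, CRYAB and HSPD1) passed at no time. First calls were not counted over all genes. Calls over all genes also grew, from 3.29% higher and 1.75% lower at 1 h to 13.3% and 18.3% at 4 h. The highest mean fell at 4 h for HSPA6, HSPB8 and BAG1, at 12 h for 12 genes, at 16 h for 3, at 24 h for 10 and at 48 h for 8.

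In the HSP70 and HSP110 family the sharpest change was a pulse of HSPA6, the HSP70 gene that human cells transcribe almost only under stress. Its signals were 45.0, 138 and 26.7 at 0 h, 351, 641 and 376 at 4 h, 265, 586 and 444 at 8 h and 123, 364 and 268 at 12 h, then 10.8, 128 and 161 at 16 h and 49.6, 16.5 and 85.7 at 24 h. Every array at 4 and 8 h lay above every array at 0 h, whereas the 12 h arrays overlapped with the brightest 0 h array and the 24 h arrays overlapped with those at 0 h. The change was 2.59 ± 0.55 at 4 h (adjusted p = 0.00041), 2.49 ± 0.55 at 8 h (0.00047) and 1.71 ± 0.55 at 12 h (0.014), and between 24 and 8 h it was -2.78 ± 0.55 (0.00025). The change at 12 h was 1.32 (adjusted p = 0.09) without 0 h replicate 3. A dimmer probe set of HSPA6 passed at 4 and 8 h, with 1.01 and 0.92, but at 4 h it was 0.84 (adjusted p = 0.15) without 4 h replicate 2, and at 8 h 0.78 (adjusted p = 0.16) without 8 h replicate 3. On 2 of the 3 arrays at 0 h HSPA6 lay below the array's 40th percentile used as the filter. This is the gene whose stretch above shows a 3-unit element close to the start.

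HSPH1, the HSP110 protein that resets HSP70 by nucleotide exchange, rose at the same time and stayed up. It gave 914, 773 and 701 at 0 h, 1845, 1613 and 2559.8 at 4 h, 2474, 3066 and 3238 at 24 h and 1976, 2287 and 2683 at 48 h. All arrays from 4 h on exceeded all at 0 h, and the change was 1.30 ± 0.18 at 4 h (adjusted p = 5.9e-07) and 1.85 ± 0.18 at 24 h (2.2e-10). A dimmer probe set, of a kind prone to cross-hybridization, did not pass at 4 h (0.62) and passed from 8 h on with 0.79 to 1.14, though at 48 h it was 0.49 (adjusted p = 0.16) without 0 h replicate 3.

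The joint probe sets of HSPA1A and HSPA1B, the main inducible HSP70 genes, differed from each other after 4 h. The brighter gave 3158, 2328 and 2602 at 0 h, 4995, 5763 and 6596 at 4 h and 4038, 4065 and 3978 at 48 h, without overlap between 0 h and either later time. In the fit over 17122 probe sets it was higher by 1.10 ± 0.19 at 4 h (adjusted p = 3.6e-05) and by 0.59 to 1.06 at the later times, all past the threshold. At 16 h it was 0.27 (adjusted p = 0.24) without 16 h replicate 2, and at 48 h 0.49 (adjusted p = 0.083) without 0 h replicate 2. The other passed at 4 h alone (0.62 ± 0.20, adjusted p = 0.019) and was 0.45 (adjusted p = 0.14) without 4 h replicate 2. Which of the pair contributed could not be resolved.

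The rest of the family moved less. HSPA4, another HSP110 exchange factor, read by a probe set prone to cross-hybridization, had 2409, 2539.5 and 2157 at 12 h, against 1534, 1342 and 1439 at 0 h, which do not overlap, a change of 0.71 ± 0.14 (adjusted p = 9.6e-05). It was higher at all times from 8 h, the 8 h change being 0.28 (adjusted p = 0.16) without 8 h replicate 3, but of its other 3 probe sets 1 was higher at 12 and 48 h alone and 2 at no time, and 1 of these was lower at 1 h (-1.92). HSPA13, a little-studied HSP70-like protein of microsomes, was lower at 4 and 8 h (-0.50 and -0.54) and higher at 24 h (0.40, adjusted p = 0.044). The change at 4 h was -0.46 (adjusted p = 0.054) without 0 h replicate 1 and that at 24 h 0.29 (adjusted p = 0.21) without 24 h replicate 3. The second probe set of HSPA13 passed at no time. HSPA9, the HSP70 of mitochondria, is given with the other mitochondrial members. HSPA2, known mainly from testis, was dim, with 122 to 151 at 48 h and 4.37 to 148 at 0 h, and passed at no time.

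**Figure D3:**
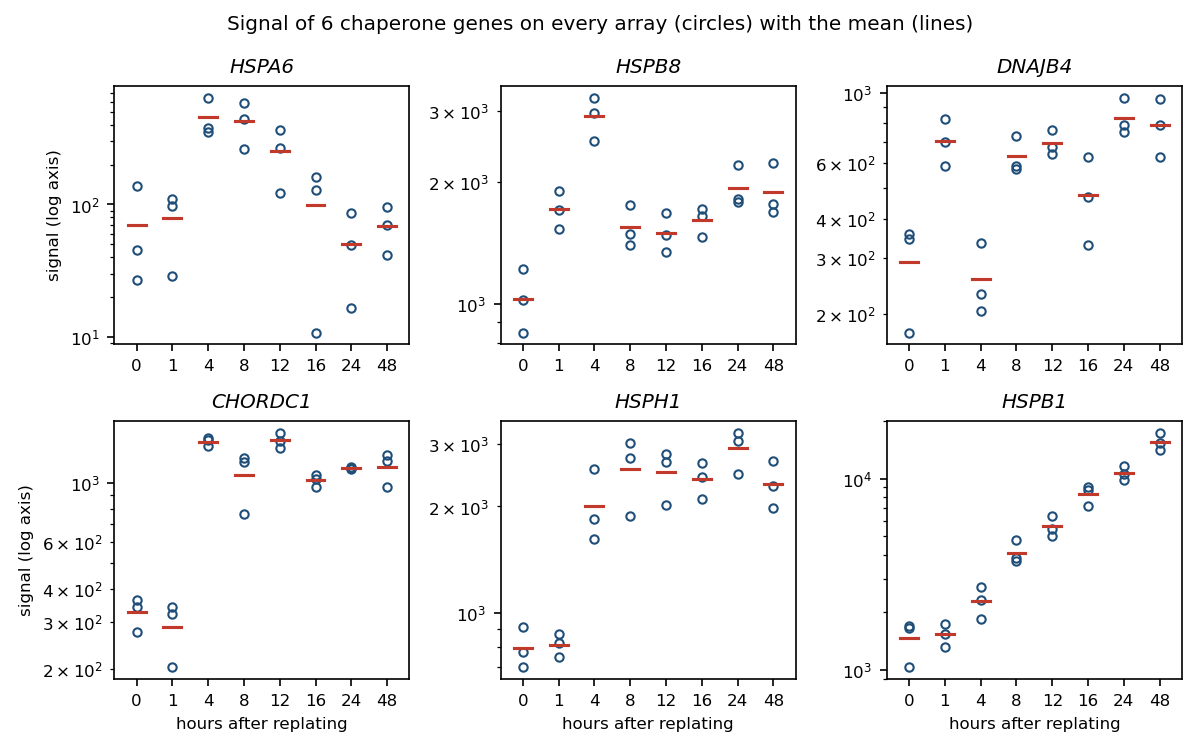
Signal (log axis) of HSPA6, HSPB8, DNAJB4, CHORDC1, HSPH1 and HSPB1 on each of the 3 arrays (circles) and their mean (lines) at the 8 times, evenly spaced on the horizontal axis. HSPA6 and HSPB8 are highest at 4 h, DNAJB4 returns to its 0 h range at 4 h, and the lowest HSPB1 array at 48 h (14058) lies above every earlier one.

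Among J-domain proteins, which choose clients for HSP70, DNAJA1, DNAJB4 and DNAJC7 rose and the other 3 did not pass. DNAJB4 had an early peak that was gone at 4 h and then returned. Its signals were 346, 358 and 175 at 0 h, 585, 696 and 828 at 1 h, 204, 336 and 232 at 4 h, 729.7, 588 and 575 at 8 h and 791, 749 and 963 at 24 h. The 1, 8 and 24 h arrays lay above all 0 h arrays, and the 4 h arrays lay within their range. The change against 0 h was 1.26 ± 0.24 at 1 h (adjusted p = 0.00044) and -0.14 at 4 h (0.71), and the steps were -1.40 ± 0.24 for 4 over 1 h (2.7e-05) and 1.26 ± 0.24 for 8 over 4 h (0.0005).

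At 24 h the change of DNAJB4 against 0 h was 1.51 ± 0.24 (adjusted p = 3.5e-06), while against 1 h it was 0.25 (adjusted p = 0.44). The second probe set of the gene showed the same peak and return, with 1.28 at 1 h and -0.26 at 4 h, and passed again only at 48 h (1.00). It was 1.17 (adjusted p = 0.052) without 1 h replicate 2 for 1 h, and 0.80 (adjusted p = 0.069) without 48 h replicate 1 for 48 h. The brighter one passed at 16 h too (0.68), where it was 0.37 (adjusted p = 0.23) without 0 h replicate 3.

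DNAJA1, a cytosolic partner of HSP70, climbed without a dip at 4 h. It had 3658, 2711 and 3239 at 0 h, 4626, 4659 and 4470.1 at 1 h and 7691, 6746 and 6713 at 48 h, with no overlap between any of these times. The change was 0.53 ± 0.13 at 1 h (adjusted p = 0.0094) and 1.14 ± 0.13 at 48 h (7.9e-09), and its other probe set passed from 4 h on. The change at 1 h was 0.41 (adjusted p = 0.10) without 0 h replicate 2. DNAJC7, which can bind both HSP70 and HSP90, had 2049, 1975 and 1658 at 12 h, against 932, 895 and 1049.7 at 0 h, again apart, a change of 0.97 ± 0.15 (2.2e-06). DNAJB1, the main stress-inducible partner of HSP70, ranged between 872 and 949 at 12 h and between 619 and 842 at 0 h and did not pass (0.37 ± 0.18, adjusted p = 0.097), although its second probe set passed at 8 h (0.62), where it was 0.42 (adjusted p = 0.18) without 0 h replicate 2. DNAJB6, a suppressor of protein aggregation whose window holds a 3-unit element, moved between -0.45 and 0.31 without passing against 0 h.

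The BAG proteins release clients from HSP70, and their genes parted company over the course. BAG2, an inhibitor of the ubiquitin ligase CHIP, had 456, 477 and 600.1 at 0 h, 1322, 1061 and 917 at 4 h and 1749.7, 1994 and 1761 at 12 h. The 3 times do not overlap, and the change was 1.07 ± 0.17 at 4 h (adjusted p = 1.1e-05) and 1.82 ± 0.17 at 12 h (3.8e-10). BAG3, which works with HSPB8 in selective autophagy, had 2715, 2508 and 2219 at 48 h, against 1014, 1254 and 1081 at 0 h, a change of 1.14 ± 0.13 (1.3e-08). These arrays do not overlap, and BAG3 passed at every time from 4 h on. BAG1, which links HSP70 to the proteasome, had 1285, 1035 and 1512 at 0 h, 1953, 1747 and 1836 at 4 h and 973, 799 and 957 at 24 h.

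All 4 h arrays of BAG1 thus lay above all 0 h arrays, and all 24 h arrays lay below them. The change was 0.54 ± 0.16 at 4 h (adjusted p = 0.0079) and -0.47 ± 0.16 at 24 h (0.017), and -0.90 ± 0.16 for 24 over 8 h (5.3e-05). Without 0 h replicate 2, whose value was the lowest, the change at 4 h was 0.40 and did not pass (adjusted p = 0.077), and that at 24 h was -0.34 (adjusted p = 0.12) without 0 h replicate 3. With every array centred on its median, none of the falls of BAG1, HSPA13 and TRAP1 against 0 h passed. A dimmer probe set of BAG1 had 951, 913 and 939 at 0 h and 1369, 1221 and 1407 at 4 h. At 24 h it had 778, 718 and 877, and neither of these later times overlapped with 0 h.

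Of the 9 measured genes of the HSP90 system, 2 rose at 4 h and 5 at 8 h (13.3% and 16% of all genes). The number was 8 at 12 and 16 h (17.2% and 18.2% of all genes). TRAP1, the mitochondrial HSP90, was lower at 8 h alone (-0.42 ± 0.16, adjusted p = 0.043). That change was -0.34 (adjusted p = 0.16) without 0 h replicate 1. By the brightest probe sets the largest change in the group was that of CHORDC1, an HSP90 cochaperone whose window holds 3 overlapping 3-unit elements. It had 275, 364 and 343 at 0 h, 322, 204 and 343 at 1 h, 1467, 1369 and 1440.2 at 4 h, 1347, 1433 and 1541 at 12 h and 1207, 1269 and 962 at 48 h. The arrays at 0 and 1 h occupied the same low range, and every array from 4 h on lay above both. The change was 2.07 ± 0.18 at 4 h (adjusted p = 4.5e-11), 2.09 ± 0.18 at 12 h (3.1e-11) and 1.75 ± 0.18 at 48 h (9.4e-10), and 4 over 1 h gave 2.26 ± 0.18 (1.5e-11).

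The adaptors also rose. CDC37, which brings protein kinases to HSP90, had 1999.5, 1383 and 1638 at 16 h, against 931, 469 and 611 at 0 h, which do not overlap, a change of 1.34 ± 0.20 (adjusted p = 2.3e-06). It passed from 4 h on. STIP1, the bridge between HSP70 and HSP90, had 669, 537 and 573 at 0 h, 1887, 2021 and 2068 at 12 h, 1378, 712 and 1600.4 at 24 h and 2432, 1830.2 and 1898 at 48 h. All 12 and 48 h arrays lay above those of 0 and 24 h, and 1 array at 24 h (712) lay close to the 0 h range. The change of STIP1 was 1.72 ± 0.24 at 12 h (6e-07) and 1.76 ± 0.24 at 48 h (3.7e-07), and its second probe set gave 1.58 and 1.64.

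The HSP90 proteins themselves first passed at 8 and 12 h. HSP90AB1, the constitutive cytosolic form, had 5047, 5746 and 4893 at 0 h, 8675, 5447 and 5366 at 4 h and 11353, 11939.7 and 12045 at 12 h. A single array at 4 h (8675) was high, the 12 h arrays were all above it, and the change passed from 8 h on, with 1.17 ± 0.15 at 12 h (adjusted p = 1.8e-07). HSP90AA1, the inducible form, had 11289.8, 12466 and 10203 at 0 h, 9886, 12653 and 10747 at 4 h and 21129, 20716 and 21849 at 24 h. The 4 h arrays overlapped with those at 0 h, the 24 h arrays lay far above both, and the change was -0.03 at 4 h, 0.46 ± 0.13 at 12 h (0.0048) and 0.91 ± 0.13 at 24 h (6.8e-07). All 4 probe sets of HSP90AA1 passed at 12, 16, 24 and 48 h, with 0.40 to 0.91, and none was higher at 4 h, where 1 was lower (-0.46, and -0.38 (adjusted p = 0.12) without 4 h replicate 2). Of these calls, 2 at 16 h did not pass without 16 h replicate 1, and 1 at 24 h did not without 24 h replicate 1. Both HSP90 genes carry 3-unit elements in the stretches above.

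The remaining HSP90 partners rose moderately. PTGES3 (p23), which stabilises the closed form of HSP90, passed from 12 h with 0.44 to 0.81, the 12 h change being 0.36 (adjusted p = 0.073) without 12 h replicate 2. PPID, a cyclophilin of steroid receptor complexes, read by a probe set prone to cross-hybridization, passed at 12, 16 and 24 h with 0.47 to 0.58. At each of these times it did not pass without 1 of that time's arrays (adjusted p = 0.15, 0.15 and 0.076). The other probe set of PPID had 1279, 1387 and 1444 at 12 h, against 874, 688 and 865 at 0 h, without overlap. At 16 h it had 1071, 936 and 987, and at 24 h 906.5, 883 and 1413. FKBP4, an immunophilin of the same complexes, passed at 8, 12 and 16 h with 0.54 to 1.03, the 8 h change being 0.40 (adjusted p = 0.17) without 8 h replicate 3. Its dimmer probe set had 173, 10.5 and 107 at 0 h and passed from 4 to 48 h with 1.53 to 2.37. Without 0 h replicate 2, the low array, these changes were 0.71 to 1.56, and the one at 4 h did not pass (adjusted p = 0.067).

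Small heat shock proteins hold unfolded proteins without using ATP. HSPB1 (HSP27), which also binds actin filaments in other settings, showed the largest change of the whole list. Its mean signal was 1464 ± 374 at 0 h, then 1540.3 ± 214, 2292 ± 433 and 4103 ± 592 at 1, 4 and 8 h, 5636 ± 702 and 8350.1 ± 997 at 12 and 16 h, and 10657 ± 898 and 15606 ± 1695 at 24 and 48 h (SD, with n = 3 a time). The single arrays were 17417, 15344 and 14058 at 48 h and 1707, 1034 and 1652 at 0 h. At each time from 4 h on all arrays lay above all arrays of 0 h, and each mean was higher than the one before it.

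The change of HSPB1 was 0.66 ± 0.16 at 4 h (adjusted p = 0.0021), 1.96 ± 0.16 at 12 h (2e-11) and 3.43 ± 0.16 at 48 h (9.2e-18), the last a 10.8-fold rise. The steps of 4 over 1 h, 8 over 4 h and 24 over 8 h passed, with 0.56, 0.84 and 1.38, and 48 over 24 h did not (0.55 ± 0.16, adjusted p = 0.06). At 4 h against 0 h the change was 0.43 (adjusted p = 0.046) without 0 h replicate 2. Its window has a 2-unit match only, and 1 probe set measures it. Over the same times the biliary marker sum above was higher and the hepatocyte marker sum lower than at 0 h. KRT19 made up most of that biliary sum at 0 and 48 h. The part of these marker changes in the rise of HSPB1 was not tested.

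HSPB8, a partner of BAG3, peaked at 4 h. It had 849, 1218 and 1021 at 0 h, 1908, 1534 and 1712 at 1 h, 2969, 2537 and 3239 at 4 h, 1402, 1485 and 1759.8 at 8 h and 1686, 2238 and 1763 at 48 h. The 4 h arrays exceeded all others, and all arrays from 1 h on exceeded those of 0 h. The change was 0.74 ± 0.15 at 1 h (adjusted p = 0.0013), 1.49 ± 0.15 at 4 h (1.4e-09) and 0.59 ± 0.15 at 8 h (0.0021), and 8 over 4 h gave -0.90 ± 0.15 (9.7e-05). CRYAB (alpha-B crystallin), a small heat shock protein of muscle and lens, did not pass against 0 h. It stood at 339, 316 and 422 at 4 h, against 82.4, 300.3 and 187 at 1 h, which do not overlap, and that step passed (1.00 ± 0.30, adjusted p = 0.013).

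The subunits of TRiC/CCT, the ring that folds actin and tubulin, were all higher from 12 h on. Of 6 measured subunits, 2 were higher than at 0 h at 4 h, 5 at 8 h and all 6 at 12, 16, 24 and 48 h. The step of 8 over 4 h called all 6, with 0.43 to 0.94, against 5.53% of all genes higher in that step. CCT5 led with 2509, 2699 and 2198 at 0 h, 3884, 4165 and 4184 at 4 h, 7024, 5516 and 6841 at 8 h and 9273, 8126 and 9057 at 24 h. Each of these times lay wholly above the one before, and the change was 0.72 ± 0.13 at 4 h (adjusted p = 4.3e-05) and 1.83 ± 0.13 at 24 h (2e-13).

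The other subunits moved less. CCT2 had 7944, 9032 and 8316 at 24 h, against 4076, 3908 and 3931 at 0 h, without overlap, a change of 1.08 ± 0.10 (adjusted p = 2.9e-10), and both its probe sets passed from 4 h on. CCT4 had 8586, 8605 and 8868 at 48 h, against 3676, 3515 and 4319.7 at 0 h, again apart, a change of 1.18 ± 0.13 (3.9e-09). CCT3, CCT7 and CCT8 were higher by 0.61 to 0.94 at 48 h. At 4 h CCT7 and CCT8 stood at -0.33 and -0.25 (adjusted p = 0.06 and 0.22), with all arrays below those of 0 h but neither past the threshold. A second, dim probe set of CCT8 passed at no time.

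**Figure D4:**
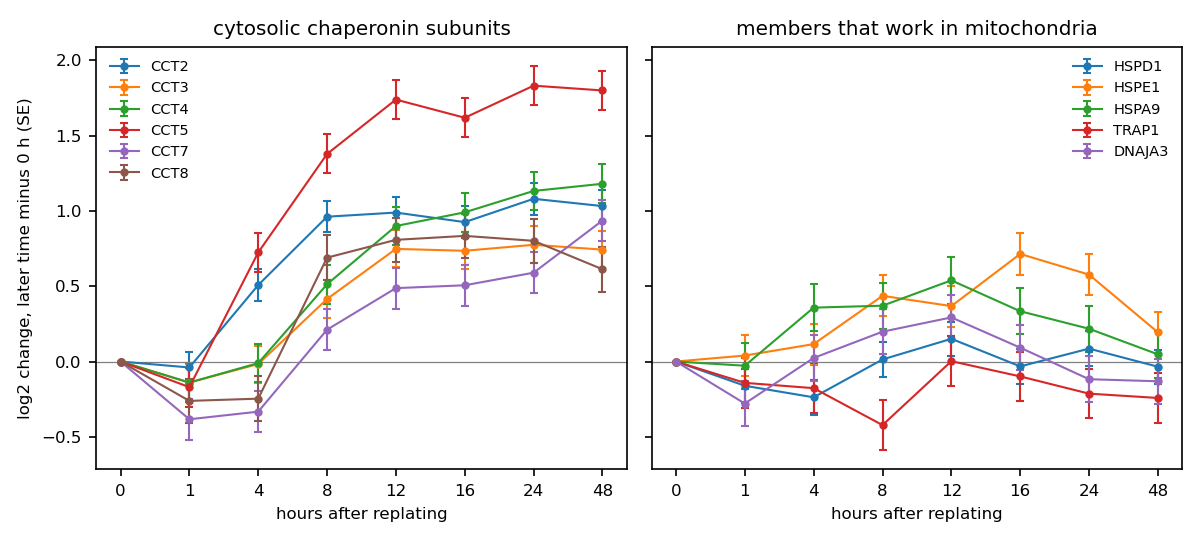
Log2 change against 0 h, with SE bars, of the 6 measured TRiC/CCT subunits (left) and of the 5 members that work in mitochondria (right) at the 8 times, evenly spaced on the horizontal axis. The cytosolic subunits all lie between 0.49 and 1.83 from 12 h on, while the mitochondrial members stay between -0.42 and 0.71.

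The 5 members that work in mitochondria (HSPD1, HSPE1, HSPA9, TRAP1 and DNAJA3) are too few for their calls to be told apart from the shares of all genes. At 8 h 1 of the 5 was higher and 1 lower (16% and 20.8% of all genes), at 12 h 2 were higher (17.2%), and at 16 and 24 h 1 was (18.2% and 20%). None passed at 1, 4 or 48 h, when 3.29%, 13.3% and 19.6% of all genes were higher and 1.75%, 18.3% and 19.4% lower. At an unadjusted p under 0.05 there were 0 at 1 h, 1 higher and 1 lower at 4 h and 0 at 48 h, against 6.79%, 16.1% and 22.4% of all genes higher and 9.7%, 24% and 24.2% lower. HSPD1, the HSP60 ring, was bright and level, with 19083, 19697 and 17825 at 0 h, 18287, 13576 and 16451 at 4 h and 18267, 17964 and 19000.0 at 48 h. These ranges overlap, and no change passed (-0.24 to 0.15), although its window holds 2 overlapping 3-unit elements. HSPE1, the HSP10 lid of that ring, whose gene lies head to head with HSPD1, had 8655, 9117 and 10218 at 16 h, against 6055, 4917 and 6107 at 0 h. These arrays do not overlap, the change was 0.71 ± 0.14 (adjusted p = 6.9e-05), and it passed from 8 to 24 h. It was 0.33 (adjusted p = 0.084) without 0 h replicate 2 for 8 h, and 0.25 (adjusted p = 0.22) without 12 h replicate 1 for 12 h. HSPA9, the mitochondrial HSP70, passed at 12 h alone (0.54 ± 0.15, 0.0055), and of its other 2 probe sets 1 passed at 4, 8, 12 and 24 h (0.33 to 0.65), though at 4 and 24 h not without 1 array. DNAJA3, the mitochondrial J-domain protein, passed at no time.

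HSF1, the factor that drives the heat shock response, was read by 2 dim probe sets that disagreed. The first had 26.6, 9.23 and 55.4 at 0 h, 132, 138 and 117 at 4 h, 214, 185 and 185 at 12 h, 66.8, 65.3 and 82.5 at 24 h and 154, 178 and 198 at 48 h. All later arrays shown lay above those of 0 h, and the change was 1.71 ± 0.40 at 4 h (adjusted p = 0.0011) and 2.25 ± 0.40 at 12 h (2.7e-05). The second had 99.9, 28.7 and 57.2 at 12 h, against 89.3, 125 and 21.9 at 0 h, which overlap, and passed at no time (-1.42 to 0.04). On every 0 h array the first lay below the 40th percentile used as the filter, so the size of its change is not well set. The level of HSF1 RNA therefore stays uncertain, and activity of the protein was not measured.

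Set in order of time, the steps between later times show when members moved. At 4 h against 1 h, 14 members were higher and 1 lower (DNAJB4), against 12.8% higher and 12.7% lower of all genes. At 8 h against 4 h, 11 were higher, among them all 6 TRiC/CCT subunits, and 1 lower (HSPB8), against 5.53% and 5.39%. That count was 6 without 4 h replicate 3 and 7 without 4 h replicate 2 or 8 h replicate 2. At 24 h against 8 h, 11 were higher and 2 lower (HSPA6 and BAG1), beside 11.8% and 9.55%. The 11 became 6 without 8 h replicate 3 or 24 h replicate 3, 7 without 8 h replicate 2 and 7 with only these groups in the fit. At 48 h against 24 h, limma called none, beside 1.35% and 2.1% of all genes, and at an unadjusted p under 0.05 there were 5 higher and 2 lower, against 6.18% and 7.68% of all genes. With 3 arrays a time, their number limits the precision of every value here.

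The 7 measured members with a 3-unit element in a window did not share a time course. HSPA6 and CHORDC1 first passed at 4 h, DNAJA1 at 1 h, HSP90AB1 at 8 h and HSP90AA1 at 12 h, while DNAJB6 and HSPD1 never passed against 0 h. HSPB1, HSPH1 and BAG2, whose highest changes against 0 h were 3.43, 1.85 and 1.82, had no exact 3-unit match in these windows. The inducible HSPA1A, HSPA1B and DNAJB1 had 2-unit matches only. Only exact letters were searched, so a gene without a match may still hold an element that departs from them. Elements farther from the start were not searched.

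Chaperones of the ER, which fold secreted proteins, were lower in larger part than all genes from 4 h on. Of 14 measured, 1 was lower at 1 h (1.75% of all genes), 8 at 4 h (18.3%), 7 at 8 and 12 h (20.8% and 20.3%), 9 at 16 h (21.1%), 10 at 24 h (19.1%) and 6 at 48 h (19.4%). Only 1 or 2 were higher at any of these times, against 3.29% to 20% of all genes. At 48 h against 24 h, 5 of the 14 were higher (1.35% of all genes) and none lower (2.1%). HYOU1, the HSP110 of the ER, averaged 562 at 16 h and 1843 at 0 h, a change of -1.66 ± 0.21 (adjusted p = 9.1e-08). DNAJB9, an ER J-domain protein, averaged 1443 at 16 h and 3929 at 0 h, a change of -1.44 ± 0.14 (5.1e-10). SERPINH1, the collagen chaperone, was higher at every time, averaging 504 at 16 h and 16.2 at 0 h (adjusted p at 16 h = 7.1e-14). Its 0 h mean lies below the 18.0 added to all signals, so it was not well above background there and no fold is given.

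Subunits of the proteasome, which degrades what chaperones cannot refold, were mostly higher from 12 h on. Of 28 measured, 6 were higher and 1 lower at 4 h (13.3% and 18.3% of all genes), and 11 and 2 at 8 h (16% and 20.8%). From 12 h on 15, 19, 19 and 18 were higher (17.2%, 18.2%, 20% and 19.6%) and none lower (20.3%, 21.1%, 19.1% and 19.4%), and also none at an unadjusted p under 0.05, against 23.2% to 25.6% of all genes. At 1 h 1 was higher and 1 lower (3.29% and 1.75% of all genes). Their median log2 change was 0.35 at 12 h and 0.52 at 16 h, against 0.78 and 0.71 for the chaperone genes. PSMD8, a lid subunit, averaged 4701 at 16 h and 1909.6 at 0 h, a change of 1.30 ± 0.12 (adjusted p = 2.2e-10). PSMC4, an ATPase of the base, averaged 1619.6 at 16 h and 741 at 0 h (1.12 ± 0.15, 2.2e-07).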

How the data were processed

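The deposited values are signal intensities of 22283 probe sets on 24 arrays, made with MAS5 per the submitters' processing notes (version not given in the sources used here). The 68 control probe sets were left out, and log2(signal + 18.0) was taken, 18.0 being the 20th percentile of all signals. Probe sets had to exceed their array's own 40th percentile on at least 3 arrays, which 17122 of 22215 did. Each gene was given by its brightest tested probe set annotated to 1 symbol (9966 genes). The annotation gives 1 symbol to 19065 probe sets, several to 1043 and none to 2107. limma 3.58.1 in R 4.3.3 was fitted to all 8 groups, with a trended prior and Benjamini-Hochberg adjustment over 9966 genes, two-sided. Probe sets shown side by side, and HSPA1A/HSPA1B, come from a fit over 17122 probe sets. The fit was tested on simulated data. The labels do not say whether replicates were separate cultures, so p-values measure only the spread between these arrays, which may be technical. Named genes were, per role group, up to 3 members with the largest change against 0 h that passed, plus HSF1, and up to 3 per other list in its comparison with most calls. Members given beside these were chosen after their values were seen. The members and lists were chosen with earlier results of these data known. Promoter windows were RefSeq's (GRCh38.p14). Alternatives covered the pseudocount, normalization, filter, choice of probe sets, samples in the fit, replicate block and each array left out.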

Additional observations from a re-analysis of the deposited data

How the results depend on the processing

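No named change reversed under any alternative run, but 1 no longer passed in 1 setting other than leaving out an array. With arrays left out, BAG1 at 4 h no longer passed without 0 h replicate 2. Counts of members lower than at 0 h, which were small, moved most: at 4 h (1) the count was 2 with quantile normalization, 3 with the stricter filter, and 0 with median centring or with only the groups compared in the fit. At 8 h (2) it was 0 with median centring, 0 with 1 h as the start, and 1 with probe sets averaged per gene or with only the groups compared. At 24 h (1) it was 0 with median centring and 0 with only the groups compared. At 24 h against 8 h, 7 rather than 11 were higher with only the groups compared. At 48 h against 24 h, 2 rather than 0 were higher with the larger pseudocount, and 1 with median centring, with the stricter filter and with the replicate block. Leaving out each array in turn gave 2 to 3 members higher at 1 h, 14 to 15 at 4 h, 20 to 24 at 8 h, 23 to 27 at 12 h, 23 to 26 at 16 h, 22 to 25 at 24 h and 22 to 24 at 48 h. It gave 0 to 1 lower at 1 h, 0 to 3 at 4 h, 1 to 2 at 8 h and 0 to 1 at 24 h, and 6 to 11 higher at 8 h against 4 h, 6 to 11 at 24 h against 8 h and 0 to 2 at 48 h against 24 h. HSPA6 at 4 h stayed between 2.20 and 3.11 and HSPB1 at 48 h between 3.20 and 3.55. Arrays of the same replicate number did not deviate together (84 pairs, r of -0.07 to 0.06, 0 over 0.1), and as a block the number gave 24 members higher at 8 h and 24 at 24 h. The cause of these shifts was not tested. Dim probe sets, such as those of HSF1 and HSPA2, lie close to background and limit what can be said of these genes.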

Other observations

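Prefoldin, the complex that hands unfolded actin and tubulin to TRiC/CCT, was also followed. Of 5 measured subunits, 3 were higher and 1 lower at 8 h than at 0 h, against 16% and 20.8% of all genes. PFDN2 averaged 4189 at 8 h and 1078 at 0 h, a change of 1.94 ± 0.14 (limma adjusted p = 6.2e-13), with all arrays apart. PFDN4 averaged 769 at 8 h and 436 at 0 h (0.80 ± 0.18, 0.00054), and PFDN1 581 and 385 (0.58 ± 0.22, 0.036). Among 34 further cytosolic and mitochondrial chaperones, 7 were higher and 5 lower at 4 h (20.6% and 14.7%, against 13.3% and 18.3% of all genes). The counts were 8 and 4 at 8 h (16% and 20.8% of all genes), 8 and 5 at 12 h (17.2% and 20.3%), 12 and 4 at 16 h (18.2% and 21.1%), 13 and 1 at 24 h (20% and 19.1%) and 10 and 2 at 48 h (19.6% and 19.4%). FKBP5, an HSP90 cochaperone known to respond to glucocorticoids, averaged 98.5 at 16 h and 502 at 0 h, a change of -2.42 ± 0.39 (5.4e-06). TBCD, a tubulin folding cofactor, was lower at 16 h, with 185 against 441 at 0 h (-1.35 ± 0.31, 0.0006). DNAJB2, a J-domain protein, averaged 237 at 16 h and 105 at 0 h (1.56 ± 0.39, 0.0018), although its arrays at these times overlap.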
